A study of Mus musculus with 16 samples.

Results

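The S100 and annexin genes described here are 10 genes of calcium-regulated proteins, *S100a1*, *S100a4*, *S100a6*, *S100a10*, *S100a11*, *S100a13*, *Anxa1*, *Anxa2*, *Anxa3* and *Anxa5*, followed in mouse embryonic stem cells (mESCs) that were moved from serum to 2i medium. They were chosen by the levels of these arrays, around *S100a6*, which had the deepest measured fall in J1 mESCs with 2i. Every non-control probe of the arrays whose RefSeq accession belongs to one of the 10 genes was taken. This gave 13 of 55681 probes, and 10 of the 21154 genes that could be named. All 13 probes passed the filter on dim probes, which kept 26993 probes and 13875 named genes.

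S100 proteins are small proteins that bind calcium through EF hands, mostly act as dimers and then bind other proteins. Annexins are a separate family that binds acidic phospholipids of membranes when calcium is present. The families meet in defined pairs: *S100a10* protein joins that of *Anxa2*, and *S100a11* protein that of *Anxa1*, at the inner face of the plasma membrane. Several of these genes are abundant in fibroblasts and other differentiated cells, and *S100a4* is also known as fibroblast-specific protein.

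Gene expression was measured on 16 Agilent arrays with a single Cy3 channel. All lines came from male J1 mESCs. J1 is the wild-type line, with 4 arrays in serum and 3 in 2i. TKO mESCs lack functional *Dnmt1*, *Dnmt3a* and *Dnmt3b*, the DNA methyltransferase genes, and have 2 arrays in serum and 3 in 2i. The line written 3B3-3l in the labels, 3B3l here, lacks *Dnmt3a* and *Dnmt3b* and carries exogenous, constitutively expressed *Dnmt3b* with *Dnmt3l*, and has 2 arrays in serum and 2 in 2i. Serum medium held LIF at 500 U/ml. The 2i cultures were kept for 2 weeks in N2B27 medium with the MEK inhibitor PD0325901 at 1 uM, the GSK3 inhibitor CHIR99021 at 3 uM and LIF at 1000 U/ml. Feeder cells (SNLP, inactivated) lay under the J1 serum cultures, and TKO and 3B3l were kept without feeders on gelatin. No source used here says whether arrays of a group came from separate cultures, so the p-values measure the spread between arrays, which may be technical.

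The 75th percentile of spot intensity lay between 1019 and 1797 units, 39.7% to 49% of spots were well above background, and arrays of a group correlated at Pearson r of 0.968 to 0.99 over the probes tested. A level is given as log2 intensity minus the log2 75th percentile of its array, so 0 is a spot at that percentile. Levels of different probes cannot be compared. In TKO mESCs in serum, *Dnmt1* was 11.2-fold lower and neither array had *Dnmt3a* well above background, and all 3 *Dnmt3b* probes were 9.9-fold to 14.8-fold lower than in J1. The 7 stem cell markers examined, *Pou5f1*, *Sox2*, *Nanog*, *Zfp42*, *Fgf4*, *Dppa5a* and *Utf1*, were well above background on every array. All 4 arrays of 3B3l, with J1-serum replicate 1, lay on slide 3, and the TKO arrays lay on slides 1 and 2. Slide 3 was scanned on a different day from slides 1 and 2, so slide and scan day cannot be told apart between 3B3l and TKO. No slide held both 3B3l and TKO, so a slide effect between them could be estimated only through J1 serum, which had arrays on all 3 slides. With the slide as a block in the fit, the counts of members called between 3B3l and TKO were 6 in serum, 3 in 2i and 7 for the difference of responses, the counts also found without it. The shares of all genes called with the block were 9.96%, 8.94% and 11.5%. The last member count could hardly change, so it says little on a slide effect. All 3B3l arrays share slide 3, and the TKO arrays except TKO-2i replicate 1 share slide 1. The J1-serum array of slide 3 lay within the range of the other J1-serum arrays for 5 of the 10 genes, *S100a6* among them, above it for *S100a11* (4.43 against 3.37 to 3.60) and *S100a13* (2.14 against 1.62 to 1.72), and below it for *S100a4*, *S100a10* and *Anxa1*.

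The probes of *S100a6* and *S100a4*, which had the largest measured falls in J1 among the 10 genes, are shown because S100 genes resemble each other and a probe could in principle report a relative. The capitals mark the longest run of bases that the probes share.
*S100a6*: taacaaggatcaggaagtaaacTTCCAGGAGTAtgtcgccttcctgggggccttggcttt
*S100a4*: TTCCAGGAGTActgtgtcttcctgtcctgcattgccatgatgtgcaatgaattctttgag
Each probe is 60 bases long and the shared run is 11 bases, starting at base 23 of the *S100a6* probe and at base 1 of the *S100a4* probe. The sequences come from the supplementary table of the study, and the sequences of the other probes were not used here.

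All 6 S100 genes of the set, and *Anxa5*, lie on chromosome 3 in the RefSeq annotation of GRCm38.p6. *S100a1* and *S100a13* are direct neighbours that are read in opposite directions, with annotated starts 105 bases apart. In this annotation, 4.71% of genes have a divergent start of another gene within that distance. The bases between these starts, at chr3:90514331-90514434 on the plus strand, are printed because these are the members that rose in TKO mESCs, with each CpG, the dinucleotide that DNA methyltransferases modify, in capitals. The 250 bases before the start of *S100a6* at chr3:90612644-90612893 and of *S100a4* at chr3:90603520-90603769, both on the plus strand, are given in the same way.
Between *S100a1* and *S100a13*: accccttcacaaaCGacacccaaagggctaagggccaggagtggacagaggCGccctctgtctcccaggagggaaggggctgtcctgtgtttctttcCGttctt
Before *S100a6*: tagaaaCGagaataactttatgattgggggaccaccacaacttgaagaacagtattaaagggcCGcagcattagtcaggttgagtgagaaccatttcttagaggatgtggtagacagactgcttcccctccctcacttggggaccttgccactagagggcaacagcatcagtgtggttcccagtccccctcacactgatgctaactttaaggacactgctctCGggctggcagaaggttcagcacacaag
Before *S100a4*: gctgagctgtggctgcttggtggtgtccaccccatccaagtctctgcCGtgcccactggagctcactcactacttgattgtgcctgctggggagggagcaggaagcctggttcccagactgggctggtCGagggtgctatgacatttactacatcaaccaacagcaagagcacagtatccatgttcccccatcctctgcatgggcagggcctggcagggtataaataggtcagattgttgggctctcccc
Promoter windows from 250 bases before to 50 bases after the start were available for 8 of the 10 genes. The number of CpGs in the window was 2 for *S100a4*, 3 for *Anxa1* and 6 for *S100a6*, below the median of 7 over 32851 RefSeq promoters. It was 11 for *S100a1*, 13 for *Anxa2*, 14 for *S100a13*, 15 for *S100a11* and 16 for *Anxa5*. In J1 the members on both sides of that median had lower means in 2i, with *S100a1* as the exception. The AP-1 motif TGACTCA, searched on both strands, occurred 2 times in the *S100a11* window and 1 time in that of *Anxa2*, and in 5.2% of all windows. The TATA box TATAAA was in the windows of *S100a4*, *Anxa1* and *Anxa2* and in 13.6% of all. Methylation of these windows was not measured on the arrays.

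**Figure D1:**
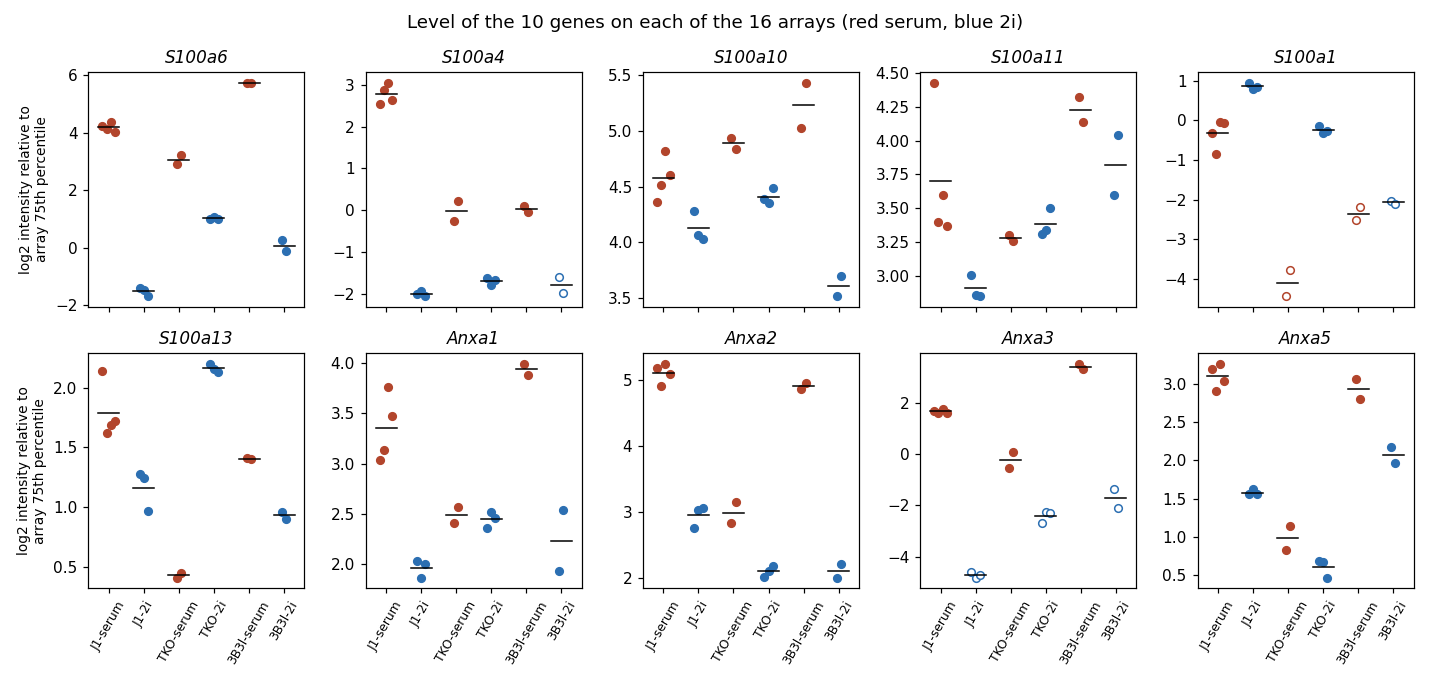
Level of each gene (main probe, log2 intensity relative to the array's 75th percentile) on every array, with serum groups in red, 2i groups in blue and the group mean as a bar. Open points mark groups in which not every array was well above background, and each panel has its own scale. *S100a6* lies between 4.02 and 4.38 in J1 serum, 2.89 and 3.23 in TKO serum and 5.72 and 5.74 in 3B3l serum, and every serum array is above every 2i array.

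*S100a6*, which encodes calcyclin, a protein first found in proliferating cells, was lower in 2i in all 3 lines, and its fall was smaller in TKO than in 3B3l. In J1 it read 4.23, 4.13, 4.38 and 4.02 in serum and -1.40, -1.48 and -1.69 in 2i. It fell by 5.71 on the log2 scale (52.5-fold), the value that chose the gene and a description with no test. Among genes well above background in both J1 groups, the next were *Tagln*, which fell by 5.21, and *Col1a2*, which fell by 5.10. In bulk samples such as these, fewer cells of a type and less RNA per cell cannot be told apart.

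In TKO mESCs, *S100a6* read 2.89 and 3.23 in serum and 0.98, 1.07 and 1.00 in 2i. The groups did not overlap, and the fall was 2.04 ± 0.15 (SE) on the log2 scale, or 4.11-fold, with a limma adjusted p of 3.58e-07. In 3B3l it read 5.72 and 5.74 in serum and 0.25 and -0.11 in 2i. Here the gap between the groups was far wider, at 5.66 ± 0.16 or 50.5-fold, with a limma adjusted p of 6.3e-10. The response in 3B3l minus that in TKO was -3.62 ± 0.22 (limma adjusted p = 3.24e-07). In serum, 3B3l exceeded TKO 6.38-fold (limma adjusted p = 2.49e-07). In 2i, 3B3l was lower than TKO by 0.95 ± 0.15, a 1.93-fold difference that missed the 2-fold limit (limma adjusted p = 0.000495) but passed it without 3B3l-2i replicate 1. From the highest to the lowest group mean the order was 3B3l-serum at 5.73, J1-serum at 4.19, TKO-serum at 3.06, TKO-2i at 1.02, 3B3l-2i at 0.07 and J1-2i at -1.52, and no neighbours in this order overlapped.

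A gene was called changed when 1 or more of its probes reached a 2-fold difference with a limma adjusted p no higher than 0.05, adjusted over all probes tested. In TKO mESCs with 2i, 3 of the 10 genes were called lower (*S100a4*, *S100a6*, *Anxa3*) and 2 higher (*S100a1*, *S100a13*), against 10.2% of all tested genes lower and 7.51% higher. In 3B3l, 6 were lower (*S100a4*, *S100a6*, *S100a10*, *Anxa1*, *Anxa2*, *Anxa3*) and 0 higher, against 8.66% lower and 6.27% higher. In J1, whose contrast chose the set, 6 were past the same limits downward and 1 upward, where 13.8% and 11.5% of all genes were, and nothing is read from that count. Counting both directions, 25.3% of all genes were called in J1, 17.7% in TKO and 14.9% in 3B3l. The median log2 response of the 10 genes was -1.45 in J1, with -0.42 in TKO and -1.66 in 3B3l; over all 13875 genes it was 0.05, 0.07 and 0.

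**Figure D2:**
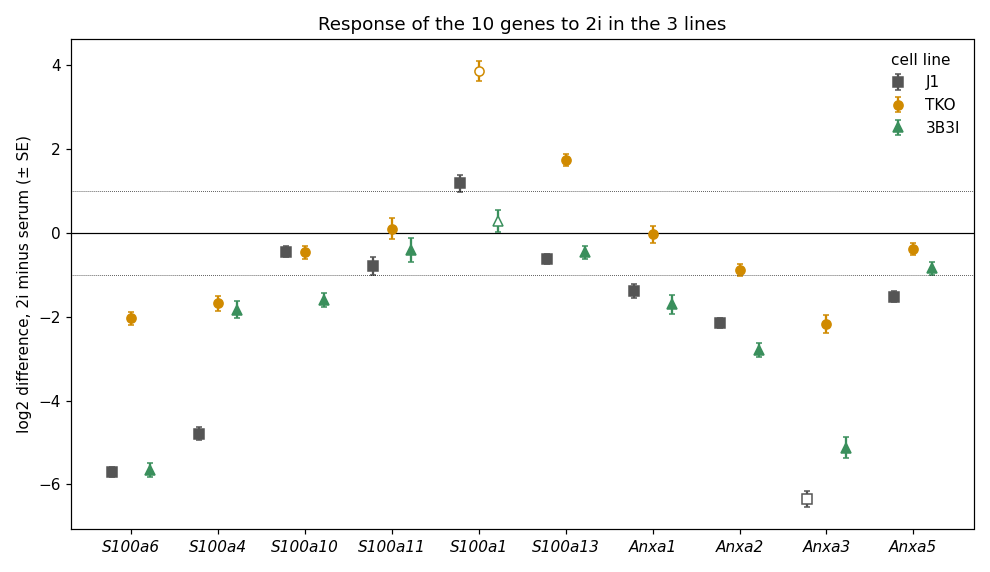
Response to 2i (log2 difference, 2i minus serum, ± SE from the limma fit) of each gene in J1 (squares), TKO (circles) and 3B3l (triangles). Dotted lines mark 2-fold, and open symbols mark a response in which 1 or both groups were not well above background on any array. *S100a6*, *Anxa1*, *Anxa2* and *Anxa3* lie lower in 3B3l than in TKO, and *S100a1* and *S100a13* stand above 0 in TKO.

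*S100a4*, the fibroblast-specific protein, fell in both mutant lines, by 3.20-fold in TKO and 3.55-fold in 3B3l on its brighter probe. On its brighter probe it read 2.55, 2.89, 3.06 and 2.65 in J1 serum and -2.02, -1.93 and -2.06 in J1 2i, and so fell by 4.79 or 27.7-fold. In TKO it read -0.27 and 0.23 in serum and -1.63, -1.80 and -1.67 in 2i. It read 0.11 and -0.05 in 3B3l serum and -1.60 and -1.99 in 3B3l 2i, where 1 of 2 arrays was well above background. The TKO fall of 1.68 ± 0.18 (limma adjusted p = 1.12e-05) and the 3B3l fall of 1.83 ± 0.20 (limma adjusted p = 1.73e-05) differed by -0.15 ± 0.27, which missed the threshold (limma adjusted p = 0.787). Both lines in serum lay below J1 in serum, TKO 7.02-fold and 3B3l 6.77-fold. These comparisons with J1 share arrays with the contrast that chose the set and are descriptions. The other *S100a4* probe was not well above background in any 2i group and gave falls of at least 62.1-fold in J1 and, in the mutant lines, of at least 5.86-fold (TKO) and at least 2.14-fold (3B3l). A bound of this kind sets the bright group against the dimmest signals that were well above background on each array of the dim group. In J1 and TKO these bounds exceed the falls on the brighter probe, so the probes differ on the size of the fall.

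*Anxa2* and its partner *S100a10* fell in 3B3l and were not called in TKO. *Anxa2* read 5.18, 4.90, 5.24 and 5.08 in J1 serum, where its spot was saturated on 1 array, and 2.75, 3.03 and 3.05 in J1 2i. It read 2.82 and 3.14 in TKO serum against 2.01, 2.10 and 2.17 in TKO 2i. The TKO groups did not overlap, but their difference of -0.89 ± 0.14 (limma adjusted p = 0.000314) was below 2-fold. Without TKO-serum replicate 1 it was -1.05 and called. The 3B3l arrays gave 4.86 and 4.95 for serum, then 2.00 and 2.20 for 2i, a fall of 2.80 ± 0.16 or 6.97-fold (limma adjusted p = 4.54e-08). The difference of the responses was -1.91 ± 0.21 (limma adjusted p = 5.89e-05). In 2i the lines had *Anxa2* means of 2.10 (3B3l) and 2.09 (TKO), 0.01 ± 0.14 apart (limma adjusted p = 0.963), whereas in serum 3B3l was 3.79-fold above TKO (limma adjusted p = 2.54e-06).

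*S100a10*, whose product binds *Anxa2* protein, covered a narrower range. It read 4.36, 4.51, 4.82 and 4.60 in J1 serum, 4.28, 4.07 and 4.03 in J1 2i, 4.93 and 4.84 in TKO serum and 4.39, 4.35 and 4.49 in TKO 2i. The 3B3l arrays gave 5.02 and 5.43 for serum, then 3.52 and 3.70 for 2i, and here alone among the 3 lines it changed by over 2-fold, by 1.61 ± 0.17 (3.06-fold, limma adjusted p = 1.25e-05). The fall in TKO was 0.47 ± 0.15 (limma adjusted p = 0.031). The difference of the responses was -1.14 ± 0.23 (limma adjusted p = 0.00465), but it was -0.93 and not called without 3B3l-serum replicate 2.

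*Anxa1*, an annexin known for its anti-inflammatory action, had a 2i response in 3B3l and none past the threshold in TKO. On the brighter of its 2 probes it read 3.04, 3.14, 3.76 and 3.47 in J1 serum and 2.03, 1.87 and 2.00 in J1 2i. The TKO values, 2.41 and 2.57 in serum and 2.36, 2.52 and 2.46 in 2i, overlapped. The TKO difference was -0.04 ± 0.21 (limma adjusted p = 0.907). In 3B3l it went from 3.99 and 3.88 in serum to 1.93 and 2.54 in 2i, a fall of 1.71 ± 0.23 (limma adjusted p = 9.88e-05), and the difference of the responses was -1.67 ± 0.31 (limma adjusted p = 0.00283). The other probe gave -0.02 in TKO, -1.62 in 3B3l and -1.59 for their difference, and the last of these 3 values was called as well (limma adjusted p = 0.00943). *S100a11*, whose product pairs with that of *Anxa1*, was called in no line. Its response was 0.10 ± 0.26 in TKO (limma adjusted p = 0.796) and -0.41 ± 0.28 in 3B3l (limma adjusted p = 0.36), and it ranged from 2.85 in J1 2i to 4.43 on J1-serum replicate 1.

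*Anxa3*, an annexin first described as an enzyme of inositol phosphate metabolism, fell in both mutant lines, and further in 3B3l than in TKO. It read 1.66, 1.61, 1.75 and 1.61 in J1 serum and was not well above background on any of the 3 J1-2i arrays, which gave a difference of at least 33.7-fold. In TKO it read -0.56 and 0.08 in serum and -2.69, -2.26 and -2.28 in 2i, with 2 of 3 arrays well above background, a fall of 2.17 ± 0.22 (limma adjusted p = 7.54e-06). In 3B3l it read 3.50 and 3.29 in serum and -1.36 and -2.09 in 2i, with 1 of 2 arrays well above background, a fall of 5.12 ± 0.24 (limma adjusted p = 1.42e-08). The responses differed by -2.95 ± 0.33 (limma adjusted p = 6.93e-05). In serum, 3B3l was 12.4-fold above TKO (limma adjusted p = 5.6e-07).

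*Anxa5*, whose protein binds phosphatidylserine and is used to stain dying cells, was lower in TKO than in 3B3l in both media. It read 3.20, 2.91, 3.26 and 3.04 in J1 serum, 0.83 and 1.14 in TKO serum and 3.06 and 2.80 in 3B3l serum. The 2i values were 1.56, 1.62 and 1.56 in J1, 0.69, 0.67 and 0.47 in TKO and 2.18 and 1.97 in 3B3l. TKO lay below 3B3l in serum 3.85-fold (limma adjusted p = 2.3e-06) and in 2i 2.77-fold (limma adjusted p = 9.48e-06). Its responses to 2i, -0.38 ± 0.14 in TKO (limma adjusted p = 0.0607) and -0.85 ± 0.15 in 3B3l (limma adjusted p = 0.00121), were both under 2-fold, and their difference of -0.47 ± 0.21 missed the threshold (limma adjusted p = 0.175).

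The divergent neighbours *S100a1*, known from heart muscle, and *S100a13*, which takes part in the release of FGF1, were the members called higher in TKO mESCs with 2i. *S100a13* read 0.41 and 0.45 in TKO serum and 2.20, 2.16 and 2.13 in TKO 2i. This rise of 1.73 ± 0.15 (3.33-fold, limma adjusted p = 1.26e-06) had no counterpart in the other lines, which had lower *S100a13* means in 2i. The 3B3l arrays gave 1.41 and 1.40 for serum, then 0.96 and 0.90 for 2i, a difference of -0.47 ± 0.16 (limma adjusted p = 0.0468) that was under 2-fold. J1 had 2.14, 1.62, 1.69 and 1.72 with serum, then 1.28, 1.24 and 0.97 with 2i. The response in 3B3l minus that in TKO was -2.21 ± 0.22 (limma adjusted p = 2.17e-05). TKO in serum was 2.57-fold below J1 in serum. This is a description, since J1 serum, grown on feeders, shares in the choice of the set. In 2i TKO was 2.35-fold above 3B3l (limma adjusted p = 5.28e-05), which was not called with normexp background correction.

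*S100a1* was not well above background on the brighter probe in TKO serum (-4.43 and -3.76) and read -0.14, -0.32 and -0.27 in TKO 2i, a rise of at least 9.85-fold (limma adjusted p = 8.41e-08 for the fitted difference). The other probe rose in TKO by 2.26 ± 0.37 (limma adjusted p = 0.000449), with 1 of 2 serum arrays well above background. In 3B3l the brighter probe was not well above background on any array, so its response there was not measured. In J1 it read -0.33, -0.86, -0.05 and -0.07 in serum and 0.95, 0.79 and 0.83 in 2i, a difference of 1.18 given as a description. TKO in serum lay at least 9.3-fold below J1 in serum on this probe, also a description, since J1 serum shares in the choice of the set. Both neighbours were thus lower in TKO serum than in J1 serum and higher in TKO 2i than in TKO serum, and in J1 with 2i their means moved in opposite directions.

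**Figure D3:**
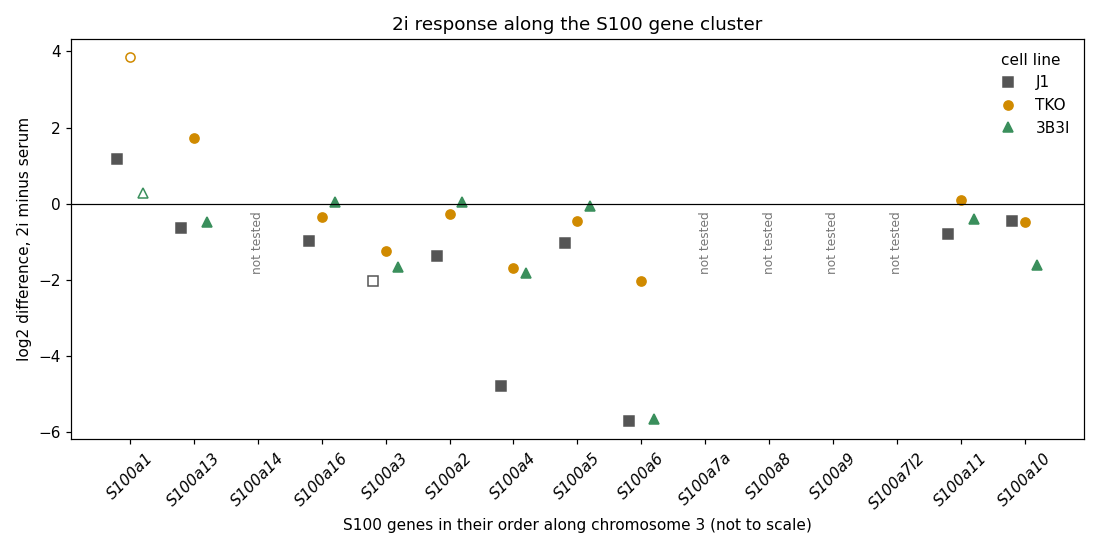
Response to 2i (log2 difference, 2i minus serum) of the S100 genes on chromosome 3 in annotation order, evenly spaced, in J1 (squares), TKO (circles) and 3B3l (triangles), for the main probe of each gene. Open symbols mark a response with 1 or both groups not well above background, and genes too dim in every group are marked as not tested. *S100a13* stands at 1.73 in TKO, the open *S100a1* symbol beside it is a fitted value for a rise of at least 9.85-fold, and *S100a6* in J1 and 3B3l lies lowest.

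The difference between the 3B3l and TKO responses was called lower for 7 of the 10 genes (*S100a1*, *S100a6*, *S100a10*, *S100a13*, *Anxa1*, *Anxa2*, *Anxa3*) and higher for 0, against 5.63% lower and 5.56% higher among all tested genes. The *S100a1* difference is a fitted value, since its response in 3B3l was not measured on the brighter probe, and 6 genes remain without it. The other *S100a1* probe, well above background on 1 of 2 arrays in TKO serum, 0 of 2 in 3B3l serum and 1 of 2 in 3B3l 2i, gave a response of 0.13 ± 0.41 in 3B3l and a difference of responses of -2.12 ± 0.56 that was also called (limma adjusted p = 0.0234). The median of the 10 fitted differences was -1.79, and that of all genes was -0.06. For *S100a1* and *S100a13* the difference came with a rise in TKO, and for the other 5 with a larger fall in 3B3l. In serum, 6 of the 10 genes were higher in 3B3l than in TKO and 0 lower, where 5.99% and 6.61% of all genes were, but on the brighter *S100a1* probe, the one called, neither group was above background, which leaves *S100a6*, *Anxa1*, *Anxa2*, *Anxa3* and *Anxa5*. In 2i, *Anxa5* was higher in 3B3l than in TKO, and *S100a1* and *S100a13* were lower, against 5.47% and 6.38% of all genes. Of all genes, 12.6% were called between these lines in serum, 11.8% in 2i and 11.2% for the difference of responses, in either direction.

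Against J1, whose serum arrays were grown on feeders and share in the choice of the set, TKO in serum was past the limits downward for 7 of the 10 genes and upward for 0, where 9.88% and 9.24% of all genes were. Among them *Anxa5* was 4.33-fold and *Anxa2* 4.35-fold lower. 3B3l in serum was lower than J1 for *S100a1* and *S100a4* and higher for *S100a6* and *Anxa3*, against 11.2% and 11.5% of all genes, and its *Anxa2* and *Anxa5* values overlapped those of J1. In 2i, TKO was higher than J1 for *S100a6*, *S100a13* and *Anxa3* and lower for *S100a1*, against 4.46% and 4.02% of all genes. *S100a13* was at the 2-fold limit there and was not called without J1-2i replicate 3, without TKO-2i replicate 1, with normexp background correction or with scaling to the array median, and *Anxa5* was called without TKO-2i replicate 1 and with scaling to the array median. 3B3l in 2i was higher than J1 for *S100a6* and *Anxa3* and lower for *S100a1*, against 9.15% and 7.79%. In either direction the shares of all genes called against J1 were 19.1% for TKO and 22.6% for 3B3l in serum, and 8.47% and 16.9% in 2i. Counts of members in these comparisons with J1 are descriptions, since *S100a6* is among them. Within slide 1, the 5 genes called in TKO with 2i kept their sign, and their log2 differences shifted by at most 0.14. Set against the single J1-serum array of slide 3, the 4 genes called between 3B3l-serum and J1-serum kept their sign and shifted by at most 0.24. The uncalled *S100a11* difference turned from 0.53 over all arrays to -0.20 there.

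Levels of marker genes of other cells moved with several of these results. The summed level of 18 fibroblast markers, as multiples of the array's 75th percentile, was 32.7 to 41.3 in J1 serum, 7.13 to 8.44 in TKO serum and 16.6 to 17.7 in 3B3l serum, and it was 2 to 2.39, 2.87 to 3.04 and 3.87 to 4.15 in 2i. Such a sum is weighted to its brightest probes, and sums of different lists cannot be compared. Of these markers 9 were well above background on all arrays of J1 serum and 7 each on those of TKO serum and 3B3l serum. Those not above background on any array numbered 6 in J1 serum, 8 in TKO serum and 10 in 3B3l serum, with *Lum*, *Prrx1* and *Fap* in each. With 2i in 3B3l, 4 of the 10 tested were called lower and *Pdgfrb* higher, against 8.66% and 6.27% of all genes. The sum of 9 primitive endoderm markers, such as *Gata4*, *Gata6* and *Sox17*, was 57.7 to 73.3 in J1 serum, 12.8 to 16.4 in TKO serum and 11.2 to 12 in 3B3l serum, and lay between 1.91 and 3.36 in all 2i groups. The sum of 7 trophoblast markers was 8.37 to 9.01 in 3B3l serum and 5.91 to 5.96 in 3B3l 2i, but 2.84 to 3.95 in J1 serum and 7.41 to 8.29 in J1 2i, and 5.02 to 5.62 in TKO serum and 4.6 to 5.05 in TKO 2i. Its genes did not move together with 2i. *Eomes* was called higher and *Gata3* lower in all 3 lines, but in J1 *Gata3* was not above background on any array of either group. *Cdx2* was called lower in J1, where no 2i array was above background. It was called higher in TKO, where no serum array was. In serum, 5 of the 6 trophoblast genes tested were called higher in 3B3l than in TKO and 0 lower, against 5.99% and 6.61% of all genes. Of the 10 fibroblast genes tested, 7 were called higher and 1 lower in that comparison. Among the 7, *Pdgfrb* was not above background on any array of either group. Of the 9 primitive endoderm genes, 0 were called higher and 0 lower. *S100a6* and the trophoblast sum were highest in 3B3l serum, and the fibroblast and primitive endoderm sums in J1 serum. The part of these cell types in the results was not tested.

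**Figure D4:**
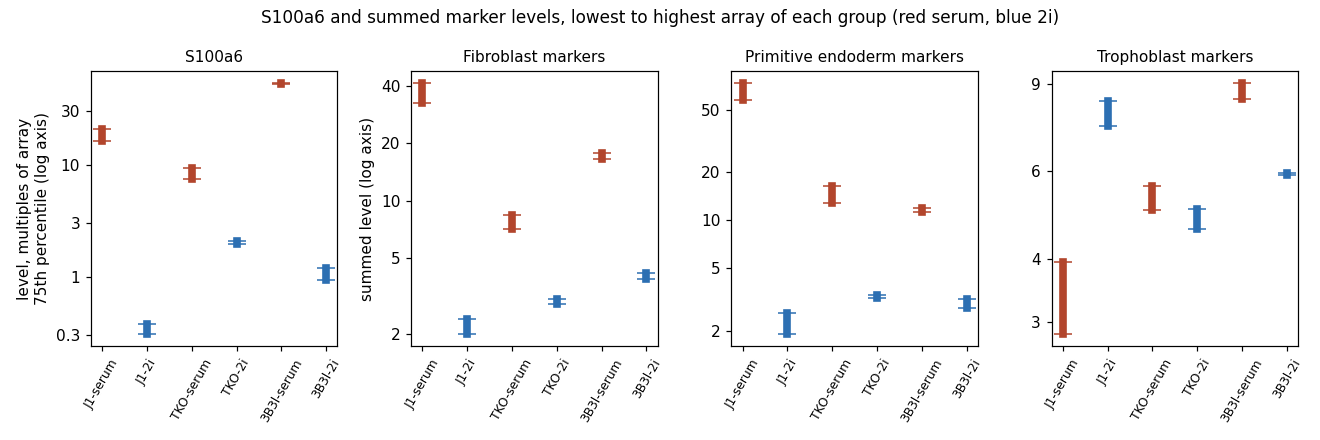
Level of *S100a6* and summed levels of 3 marker lists in each group, as multiples of the array's 75th percentile on log axes, drawn from the lowest to the highest array (serum red, 2i blue). Fibroblast sums run from 32.7 to 41.3 in J1 serum and primitive endoderm sums from 57.7 to 73.3, above every other group, and *S100a6* and the trophoblast sum (8.37 to 9.01) are highest in 3B3l serum.

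Among the other S100 and annexin genes, *Anxa4* was higher in TKO and *Anxa8* lower in 3B3l with 2i. Of 20 such genes on the arrays, 9 were tested. Of the rest, *S100g* and *S100b* were well above background on some arrays but on no group's full set, and the other 9 on none. *Anxa4*, an annexin of secretory epithelia, rose in TKO from 0.33 and 0.50 in serum to 1.97, 1.89 and 1.98 in 2i (2.89-fold, limma adjusted p = 4.4e-07). *Anxa8* fell in 3B3l on 1 of its 2 probes by at least 3.84-fold (limma adjusted p = 5.92e-08 for the fitted difference), and its other probe was not called. The remaining 8 were not called in TKO, nor were the remaining 8 in 3B3l. Of all genes, 7.51% were called higher and 10.2% lower in TKO, and 6.27% higher and 8.66% lower in 3B3l. The median response over the 9 was -0.35 in TKO and -0.06 in 3B3l.

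Of 19 listed binding partners and receptors, 18 were on the arrays and 14 were tested. *Ahnak*, a large scaffold bound by the *S100a10* and *Anxa2* proteins, rose 2.96-fold in TKO with 2i (limma adjusted p = 5.13e-06) and had a difference of -0.76 ± 0.17 in 3B3l (limma adjusted p = 0.00498), so the responses differed by -2.32 ± 0.23 (limma adjusted p = 2.25e-05). *Dysf*, which takes part in membrane repair, was not well above background in 2i in any line and fell at least 1.96-fold (TKO) and at least 4.94-fold (3B3l). *Plat*, the tissue plasminogen activator, was not well above background in either TKO group, though the fit called it lower, and fell by at least 1.36-fold in 3B3l. *Plaur*, the urokinase receptor, fell 6.33-fold and *Capn2*, a calcium-dependent protease subunit, 6.55-fold in 3B3l (limma adjusted p = 2.67e-08 and 4.52e-07), and both were under 2-fold in TKO. In all, the fit called 1 of the 14 higher and 2 lower in TKO, with *Plat*, not measured there, among the 2, where 7.51% and 10.2% of all genes were called. It called 0 higher and 4 lower in 3B3l, against 6.27% and 8.66%, and the difference of the responses was called lower for 6 and higher for 0, against 5.63% and 5.56%. These 6 include *Plat* and *Dysf*, each with groups not well above background, and without them *Ahnak*, *Plaur*, *Capn2* and *Myh9* remain.

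Over the 6 group means, the genes most like *S100a6* among 13628 compared were *Gpc1*, a cell surface heparan sulfate proteoglycan, with Pearson r of 0.995, *Lrfn1* and *Smo*, the transducer of Hedgehog signals, with 0.993 each, *Exoc3l4* with 0.99 and *Smarcc1* with 0.989. Their ranges were narrower, *Gpc1* for instance going from 1.73 in 3B3l-serum to 0.17 in J1-2i. Within the set, *Anxa3* had an r of 0.976 with *S100a6*, *Anxa1* 0.936, *S100a10* 0.83 and *Anxa2* 0.79, while *S100a13* had 0.105 and *S100a1* -0.485. These are descriptions over 6 points that share their arrays.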

How the data were processed

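The submitters extracted the scans with Agilent Feature Extraction 11.5.1.1, and the deposited files hold the processed spot intensity, corrected for background, with flags for spots well above background, saturated spots and outliers. A deposited table of log2 values for 30170 probes, made by the authors, served only as an alternative: each of its 16 columns matched best an array of its own group, but only 3 matched the array of the same replicate number. Control spots and outlier spots were left out, spots of a probe were averaged, and log2 intensity minus the array's 75th percentile was used. Where 50% or more of a probe's spots carried the flag on an array, the probe was taken as well above background there. A probe was tested if this held for all arrays of any group. limma 3.58.1 in R 4.3.3 fitted 6 group means over all 16 arrays, with empirical Bayes moderation, two-sided tests and Benjamini-Hochberg adjustment over the probes tested. The number of arrays limits the precision, and 755 tested probes lacked a value on some array. Genes were named through RefSeq accessions in the GRCm38.p6 annotation. The main probe of a gene was the one with the highest mean. Named genes were the 10 members, the 5 genes most correlated with *S100a6*, and related genes and partners called or bounded in TKO or 3B3l with 2i or called for the difference of responses. Also named were *S100g* and *S100b*, the methyltransferase genes, marker genes and the genes next to *S100a6* by their fall in J1. The members and lists were chosen with earlier results of these data known. Tested on simulated data for 3B3l with 26238 probes, the fit recovered 92% of changes of 3 and 75% of changes of 1.5 on the log2 scale. Alternatives covered background correction, scaling, filter, blocks, variance, fold limit, the authors' log2 table and leaving out each array.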

Additional observations from a re-analysis of the deposited data

Results flagged for a closer look

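For 7 of the 10 genes the response to 2i differed between 3B3l and TKO by a test of the difference itself in the limma fit. Of all tested genes, 11.2% were called in that test. The response in 3B3l minus that in TKO was -3.62 on the log2 scale for *S100a6*, -2.95 for *Anxa3*, -1.91 for *Anxa2*, -1.67 for *Anxa1* and -1.14 for *S100a10*, where the mean fell further in 3B3l. It was -2.21 for *S100a13* and -3.57 for *S100a1*, where TKO rose. The *S100a1* value is a fitted difference in which the brighter probe was not well above background in TKO serum or on any 3B3l array. No gene of the set had an array in J1 serum, the only group with enough arrays, that stood apart from the others by the limit used.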

How the results depend on the processing

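The counts of members called with 2i were 7 (J1), 5 (TKO) and 6 (3B3l), and 7 for the difference of the TKO and 3B3l responses. The shares of all genes called were 25.3%, 17.7%, 14.9% and 11.2%. With only probes well above background on all 16 arrays, 7 members could be tested, since *S100a1*, *S100a4* and *Anxa3* dropped out, and the counts were 4 in J1, 2 in TKO, 4 for TKO-serum and 1 for 3B3l-serum against J1-serum, 2 for TKO-2i and 1 for 3B3l-2i against J1-2i, where 15.6%, 10.6%, 12.9%, 17%, 3.53% and 10.2% of all genes were called in either direction. With no fold limit they were 7 for 3B3l-serum against J1-serum, 7 for 3B3l-2i against J1-2i and 6 for 3B3l-2i against TKO-2i, where 57.5%, 48.5% and 37.4% of all genes were. The values that turned sign under the settings tried were uncalled. The difference of the *S100a4* responses was 0.07 with normexp background correction and, leaving out 1 array at a time, ran from -0.40 to 0.10, and *Anxa1* in TKO with 2i came to 0.04 under a slide block and ran from -0.12 to 0.04 with 1 array left out. With the slide as a block *Anxa1* was also called lower in TKO-serum and higher in 3B3l-serum against J1-serum, and with normexp *S100a13* was not called between 3B3l-2i and TKO-2i or between TKO-2i and J1-2i. With 1 array left out, *Anxa2* in TKO with 2i ran from -0.73 to -1.05, called without TKO-serum replicate 1, and the *S100a10* difference of responses from -0.93 to -1.35, not called without 3B3l-serum replicate 2. The cause of these shifts was not tested. Same-numbered arrays deviated together in 3B3l (correlation 0.293) but not in J1 (-0.12 to 0.0135) or TKO (-0.0213 to 0.0107). The numbers were not taken to pair the arrays. With the replicate block the counts were 7 (J1), 5 (TKO), 6 (3B3l) and 7 for the difference of responses, and no member's call changed. The shares of all genes called in either direction with this block were 24.8%, 17.6%, 14.9% and 10.5%. Signal over background limits *S100a1* in TKO serum and 3B3l, *Anxa3* in 2i and the dimmer *S100a4* probe in 2i to bounds or partly measured values.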
